A study of Homo sapiens with 18 samples.

Results

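The long intergenic non-coding RNAs whose symbol is LINC followed by a number were read across 3 human pancreatic ductal adenocarcinoma cell lines treated with the kinase inhibitor THZ1. Members were the endogenous rows of the deposited table whose name is LINC and digits alone, with LINC00926 left out. They numbered 74 of 17026 endogenous rows. The rule uses names alone, but it was set with earlier results of these data known. The lines were BxPC-3, MiaPaCa-2 and PANC-1. Each was given 100 nM THZ1 for 6 h, or the solvent DMSO for 6 h, and each of the 6 groups held 3 libraries. THZ1 binds covalently to CDK7, a kinase within TFIIH that acts at the start of transcription by RNA polymerase II, and it can also reach CDK12 and CDK13. All groups were grown as cell cultures in a serum-containing F12 medium with β-glycerophosphate and ascorbic acid, and ERCC spike-in RNAs were added once total RNA had been extracted. The libraries held stranded polyadenylated RNA. In such bulk samples, fewer cells of a type and less RNA per cell cannot be told apart. The labels do not say that replicates came from separate cultures, so the p-values reflect the scatter of these libraries alone, which may be technical.

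LINC is a provisional symbol, given by the order of naming to long RNAs transcribed between protein-coding genes. It says nothing of function. Some bearers were later renamed, either because a role was found, as for NORAD (LINC00657) and CYTOR (LINC00152), or because the RNA was found to encode a small protein, as for mitoregulin (LINC00116). Such RNAs are made by RNA polymerase II, are often short-lived and often start close to the start of a coding gene. Their transcription is limited by termination factors, among them ZC3H4 with its partner WDR82, and unstable ones are degraded by the nuclear RNA exosome.

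The symbols of all 74 members were found in RefSeq, which now gives 31 of them another name. RefSeq lists 60 as long non-coding RNA, 13 as protein coding and 1, LINC00035, as a transcribed pseudogene. The "long non-coding" of the group is therefore a description of its names, which are kept here as in the table. LINC00610, counted as protein coding, was matched through COMMD9, which also has its own row in the table. Its class, transcript and neighbour may thus be those of another gene. Members lay on 21 chromosomes. A transcript sequence was found for 70 members, and 15 of these had a near copy elsewhere, with at least 95% identity over at least 25% of the length. Reads of such copies may be split or shared, among them those of LINC00657, LINC00152, LINC00342 and the pair LINC00893 and LINC00894.

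Each deposited value equals the reads of a row over a divisor that is the same for its whole library. Multiplied by 1 constant, to give a mean library sum of 1e+06, it is called the rescaled value. A value of 1 stood for 6.34 to 24.7 reads. Values are not divided by transcript length and are not compared between genes. Libraries held 6336140 to 20862888 endogenous reads. The shallowest, PANC-1 DMSO replicate 1, stood apart. It was the highest of the 6 PANC-1 libraries for 50 of 74 members (67.6%) and for 57.8% of all rows. The keratin markers KRT7, KRT8, KRT18 and KRT19 summed to 1745 or more in every group, although KRT7 alone was at 0.915 to 4.2 in the MiaPaCa-2 and PANC-1 groups. The 4 fibroblast and muscle markers in the table (COL1A1, COL1A2, COL3A1 and ACTA2) summed to 10.7 to 340. Collagen COL3A1 was at 245 in MiaPaCa-2 with THZ1 and 120.2 with DMSO. The part of such differences in the LINC values was not tested. SMAD4, homozygously deleted in BxPC-3, was at 0.162 and 0.144 there with THZ1 and with DMSO, against 20.3 to 61.5 in the other lines.

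The direction of a small change depends on the scale. Log2 fold changes of rows were taken on the rescaled value plus 1. At low values they therefore lie nearer to 0 than the ratio of the printed values gives. On the deposited scale the median log2 fold change of all rows, THZ1 over DMSO, was 0.22 in BxPC-3, 0.15 in MiaPaCa-2 and -0.09 in PANC-1. Divided by ERCC reads, the same medians were -0.56, -0.76 and -0.31. Equal library sums, TMM factors and DESeq2 size factors gave the other 3 scales. The median LINC member stood below the median row in each line on the deposited scale, at -0.01, -0.08 and -0.24. It lay below on every scale, except that it lay above in MiaPaCa-2 when divided by ERCC reads (-0.68 against -0.76). Of the 74 members, 48 lay below the median row in BxPC-3, 46 in MiaPaCa-2 and 52 in PANC-1.

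The LINC members together held a smaller share of the endogenous reads with THZ1 than with DMSO, by the widest margin in BxPC-3. This share does not depend on the divisor of a library, but it sets the members against that library's total, as equal library sums do. In BxPC-3 it was 0.0389% ± 0.000652 with THZ1 and 0.0898% ± 0.00213 with DMSO (SD, n = 3 each). In MiaPaCa-2 it was 0.0522% ± 0.00236 with THZ1 and 0.0835% ± 0.00211 with DMSO. In PANC-1 it was 0.0614% ± 0.00191 with THZ1 and 0.0707% ± 0.0023 with DMSO. The groups did not overlap in any line. Each exact two-sided permutation p was 0.1, the smallest that 3 libraries against 3 allow. The highest share with DMSO belonged to BxPC-3, and the lowest with THZ1 to the same line. The summed rescaled value of the members, on the deposited scale, was 520 with THZ1 and 723 with DMSO in BxPC-3 (exact permutation p = 0.1). In MiaPaCa-2 that sum was 688 with THZ1 and 701 with DMSO, and the groups overlapped (exact permutation p = 0.6). In PANC-1 that sum was 519 with THZ1 and 603 with DMSO (exact permutation p = 0.1).

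**Figure D1:**
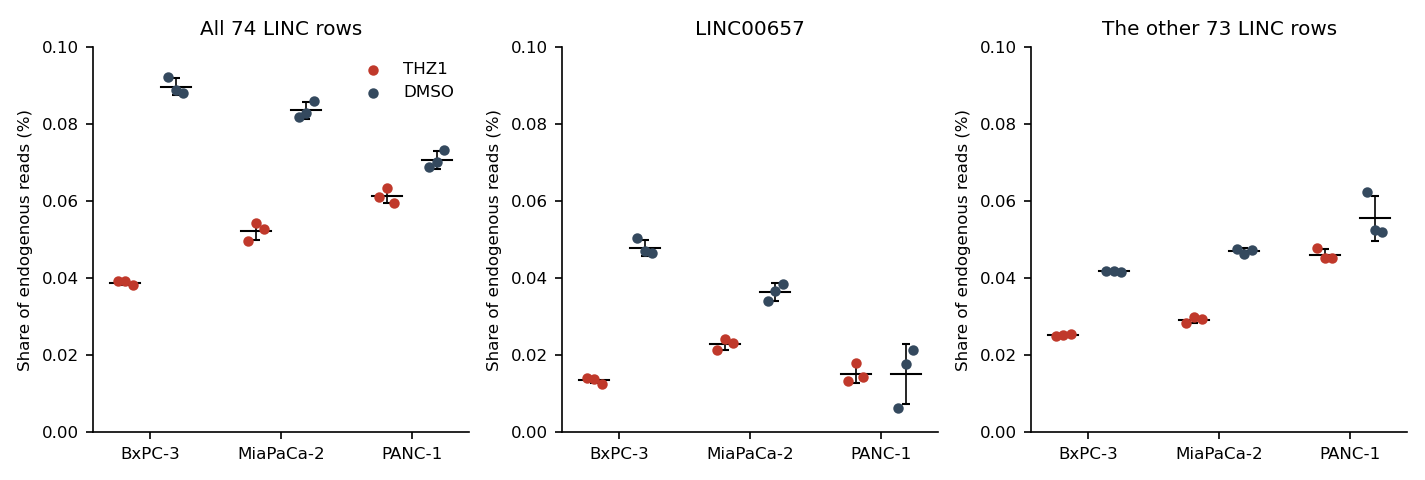
Share of endogenous reads in percent, for all 74 LINC rows (left), for LINC00657 (middle) and for the other 73 rows (right). Each point is a library, red with THZ1 and dark blue with DMSO, and bars are mean and SD (n = 3). In BxPC-3 and MiaPaCa-2 every THZ1 point lies below every DMSO point in all 3 panels. For LINC00657 in PANC-1 the groups overlap, with DMSO replicate 1 lowest.

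LINC00657, now NORAD, had the highest mean over the 18 libraries of any member. NORAD is an abundant RNA that binds the RNA-binding proteins PUMILIO 1 and 2 at many repeated sites and is needed for chromosome stability. Its share of endogenous reads was 0.0136% ± 0.00082 with THZ1 and 0.0479% ± 0.00211 with DMSO in BxPC-3, a log2 ratio of means of -1.82. In MiaPaCa-2 it was 0.023% ± 0.00151 with THZ1 and 0.0364% ± 0.00222 with DMSO. In PANC-1 it was 0.0153% ± 0.0025 with THZ1 and 0.0152% ± 0.00775 with DMSO (exact permutation p = 1). The PANC-1 DMSO libraries ran from 0.00646% in replicate 1 to 0.0214%, a range that held all 3 THZ1 libraries. Among reads of LINC members alone, NORAD made up 34.9% ± 1.55 with THZ1 and 53.4% ± 1.08 with DMSO in BxPC-3. That fraction was 44% ± 0.922 with THZ1 and 43.6% ± 1.66 with DMSO in MiaPaCa-2, where it overlapped (exact permutation p = 0.8). Without NORAD the share of the other 73 members was 0.0253% with THZ1 and 0.0418% with DMSO in BxPC-3, and 0.0292% with THZ1 and 0.0471% with DMSO in MiaPaCa-2. Their summed rescaled values overlapped in both lines. These were 338.5 with THZ1 and 336.8 with DMSO in BxPC-3 (exact permutation p = 0.7), and 385 and 395 in MiaPaCa-2 (exact permutation p = 0.3).

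On the rescaled value NORAD was at 188, 186 and 170.1 in BxPC-3 with THZ1, against 403, 379 and 376 with DMSO. The groups were far apart. The log2 fold change was -1.09 (SE 0.22, limma adjusted p = 0.000627), and the fall passed the test on all 5 scales. In MiaPaCa-2 the libraries were at 284, 318 and 307 with THZ1, against 288, 306 and 323 with DMSO. They overlapped fully, and the log2 fold change of -0.01 (limma adjusted p = 0.969) became -1.30 when divided by ERCC reads (adjusted p = 0.00108). In PANC-1 the libraries were at 114, 151 and 122 with THZ1, against 64.6, 139.6 and 165 with DMSO, and nothing passed the test on any scale. The response was more negative in BxPC-3 than in MiaPaCa-2 by 1.07 log2 units (adjusted p = 0.0364) and than in PANC-1 by 1.25 (adjusted p = 0.00563). The difference from PANC-1 passed on all 5 scales, that from MiaPaCa-2 on the deposited scale alone.

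The repeated PUMILIO motif sets NORAD apart from the rest of the group in sequence. Its GENCODE 29 transcript held 15 matches to TGTANATA, where N is any base. The next highest member held 2, and 56 members held none. A match is a run of letters and not a measured binding site. The stretches of the transcript below hold the motif in capitals, at positions 761 to 768, 1140 to 1147, 1241 to 1248 and 2039 to 2046, to show how alike the repeats are.
NORAD site at 761: ggcctgTGTATATAatatga
NORAD site at 1140: ctactgTGTATATAgttgac
NORAD site at 1241: acatttTGTAAATAcctttt
NORAD site at 2039: ttgctcTGTATATAgtatat

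The RefSeq promoter window of NORAD (GRCh38.p14, chr20:36050911-36051210, minus strand, from 250 bases before to 50 after the start) is shown because this member held so large a part of the group's reads. The capitals mark an E-box, CACGTG, a palindrome bound by factors of the MYC and USF families.
LINC00657 promoter: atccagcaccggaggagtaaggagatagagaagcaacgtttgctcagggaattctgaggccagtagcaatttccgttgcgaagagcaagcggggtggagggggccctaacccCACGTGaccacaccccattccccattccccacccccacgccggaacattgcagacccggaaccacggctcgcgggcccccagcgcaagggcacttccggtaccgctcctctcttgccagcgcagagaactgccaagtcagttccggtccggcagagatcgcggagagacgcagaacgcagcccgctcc

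Member by member, the calls ran in both directions. In BxPC-3, 15 members were higher with THZ1 (36.4% of all rows were called so) and 14 were lower (17.1% of all rows), by limma with Benjamini-Hochberg adjustment at 0.05. These are 20.3% and 18.9% of the 74 members. In MiaPaCa-2, 16 were higher (32.9% of all rows) and 14 lower (18% of all rows), or 21.6% and 18.9% of members. A fold change of at least 2 was reached by 2 higher members (9.37% of all rows) and 6 lower ones (6.17%) in BxPC-3, and by 3 higher (6.97%) and 3 lower (5.42%) in MiaPaCa-2. The libraries did not overlap upward for 22 members (48.2% of all rows) and downward for 22 (23.2%) in BxPC-3. In MiaPaCa-2 these counts were 23 (44.4%) and 25 (24.5%). The upward shares without overlap were 29.7% and 31.1% of members, and the downward ones 29.7% and 33.8%. Each upward share of members lay under that of all rows. Downward, the share called lay near that of all rows and the share without overlap above it. These differences were not tested.

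The number called in each direction depended on the scale. The deposited scale gave the highest median of all rows in both lines, so the change to any of the others moved the values of most rows down. That downward calls held and upward calls were lost follows in part from this shift. Members called higher and lower in BxPC-3 numbered 0 and 45 divided by ERCC reads, where 1.2% and 53.8% of all rows were called so. In MiaPaCa-2 they numbered 1 and 53, against 1.33% and 68.1% of all rows. All 14 downward calls in BxPC-3 and all 14 in MiaPaCa-2 held on each of the 5 scales. Of the upward calls 0 held on all 5 in BxPC-3 and 1 in MiaPaCa-2, LINC00035. A set of 9 members was lower in both lines. These were LINC00339, LINC00641, LINC00847, LINC00857, LINC00894, LINC00909, LINC00963, LINC00984 and LINC00999. On the deposited scale 11 members were higher in both lines. Each of the 20 called in both lines moved the same way in both. How many of all rows were called in both lines, or on all 5 scales, was not counted. These counts therefore do not set the members apart from other rows. Over the 57 members with a mean of at least 1, the responses of BxPC-3 and MiaPaCa-2 had a rank correlation of 0.684, which describes members measured on a shared scale and by the same libraries, and is not a test.

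**Figure D2:**
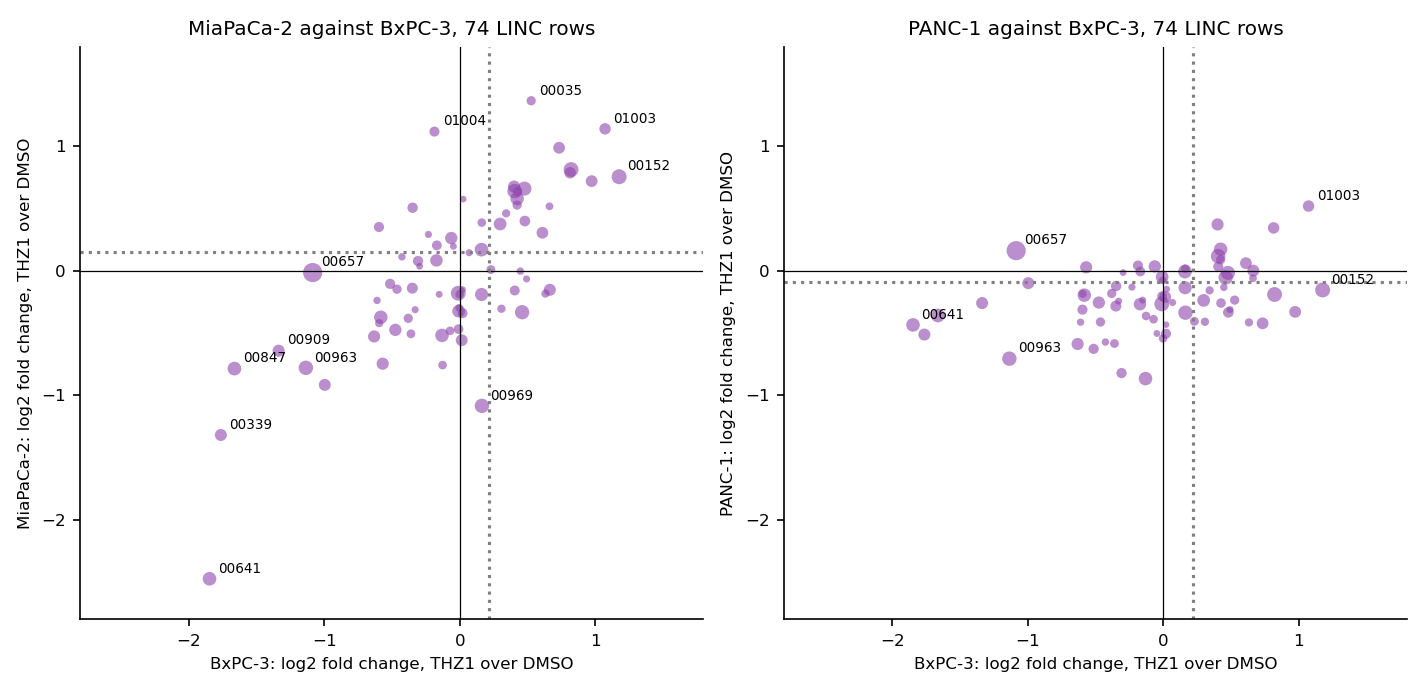
Log2 fold change, THZ1 over DMSO, of the 74 LINC rows in MiaPaCa-2 (left, vertical axis) and PANC-1 (right, vertical axis) against BxPC-3 (horizontal axis), on the deposited scale. Point area grows with the mean level, dotted lines mark the median of all rows, and labels give the digits of the symbol. LINC00641 lies lowest in MiaPaCa-2, LINC00657 lies low in BxPC-3 and near 0 in the other lines, and the PANC-1 values lie between -0.87 and 0.52.

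LINC00641 had the lowest log2 fold change of the members in both BxPC-3 and MiaPaCa-2. It lies next to HNRNPC, the gene of a nuclear pre-mRNA binding protein, and its longest transcript has 1 exon. In MiaPaCa-2 it was at 4.49, 4.73 and 2.74 with THZ1, against 25.8, 26.8 and 26.1 with DMSO. In BxPC-3 it was at 4.75, 4.19 and 5.17 with THZ1, against 22.9, 17.6 and 18.3 with DMSO. In PANC-1 it was at 6.51, 6.4 and 6.13 with THZ1, against 7.73, 9.45 and 9.71 with DMSO. The groups were separate in all 3 lines. The log2 fold change was -2.48 (SE 0.15, limma adjusted p = 3.63e-09) in MiaPaCa-2 and -1.85 (SE 0.15, adjusted p = 3.49e-08) in BxPC-3. The PANC-1 value of -0.43 did not pass (adjusted p = 0.153), except without PANC-1 DMSO replicate 1. With DMSO, PANC-1 already stood at the lowest level of the lines, and with THZ1 the 3 lines lay within 2.74 to 6.51.

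LINC00339, next to the GTPase gene CDC42, fell to less than 1 in BxPC-3. Its BxPC-3 libraries were at 0.467, 0.411 and 0.969 with THZ1, against 4.69, 4.57 and 4.03 with DMSO. Its MiaPaCa-2 libraries were at 1.1, 1.61 and 1.16 with THZ1, against 4.53, 4.42 and 5.13 with DMSO. The log2 fold changes were -1.76 (limma adjusted p = 1.81e-08) and -1.32 (adjusted p = 6.51e-07). In PANC-1 the level was higher throughout, at 9.62, 8.84 and 9 with THZ1, against 13.4, 13.1 and 13.9 with DMSO. Those groups did not overlap either, yet the log2 fold change of -0.51 did not pass (adjusted p = 0.0927), except without PANC-1 DMSO replicate 1 or 3.

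LINC00847 lies beside MGAT1, which codes for an enzyme of N-glycan synthesis. It was at 3.35, 4.77 and 4.04 in BxPC-3 with THZ1, against 13.6, 15.8 and 15.4 with DMSO. MiaPaCa-2 had it at 9.44, 9.91 and 10.9 with THZ1, against 20.2, 17.6 and 16.7 with DMSO. Both pairs of groups were separate, with log2 fold changes of -1.66 (limma adjusted p = 2.5e-08) and -0.79 (adjusted p = 0.000105). The fall was larger in BxPC-3 than in MiaPaCa-2 by 0.88 log2 units (adjusted p = 0.00525, called on 4 of the 5 scales), while with DMSO the 3 lines were not found to differ (F-test adjusted p = 0.173). LINC00963, a gene described in prostate cancer growth, was at 8.8, 9.05 and 10.1 in BxPC-3 with THZ1, against 21.8, 22.1 and 21 with DMSO. It fell there by 1.14 on the log2 scale and by 0.78 in MiaPaCa-2 (limma adjusted p = 0.000305 and 0.0064). Its responses were not found to differ among lines on the deposited scale (F-test adjusted p = 0.435), but were on the other 4. In PANC-1 it was at 16.2, 14.1 and 15.5 with THZ1, against 44.2, 22 and 17 with DMSO, separate but with 1 outlying control, replicate 1.

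The promoter windows of these last members are shown because both fell in both lines and because each has 1 window in RefSeq (GRCh38.p14). They are chr5:180830707-180831006, plus strand, and chr9:129488410-129488709, plus strand. Capitals mark the GC box GGGCGG, read on either strand, and in the second window also an AP-1 motif, TGACTCA, read on the other strand.
LINC00847 promoter: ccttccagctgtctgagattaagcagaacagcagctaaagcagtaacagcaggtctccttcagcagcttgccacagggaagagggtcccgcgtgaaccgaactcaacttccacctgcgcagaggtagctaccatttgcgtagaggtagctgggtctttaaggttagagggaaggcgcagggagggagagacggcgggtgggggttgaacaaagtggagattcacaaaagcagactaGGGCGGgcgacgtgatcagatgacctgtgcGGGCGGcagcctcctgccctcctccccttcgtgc
LINC00963 promoter: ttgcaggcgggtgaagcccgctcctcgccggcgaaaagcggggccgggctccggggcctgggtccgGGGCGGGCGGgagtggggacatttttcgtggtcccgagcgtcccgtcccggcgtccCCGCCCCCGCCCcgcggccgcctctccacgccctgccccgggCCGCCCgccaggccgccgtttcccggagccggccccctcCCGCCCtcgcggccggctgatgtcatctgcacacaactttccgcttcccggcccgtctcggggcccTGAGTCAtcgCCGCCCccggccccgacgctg

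LINC00909, which starts head to head with ZNF407, was at 0.701, 1.48 and 1.05 in BxPC-3 with THZ1, against 3.98, 4.21 and 4.38 with DMSO. Its log2 fold change was -1.34 (limma adjusted p = 3.26e-06) in BxPC-3 and -0.64 (adjusted p = 0.00349) in MiaPaCa-2. LINC00984, listed by RefSeq as the coding gene INAFM2, fell by 1.00 and by 0.92 on the log2 scale in these lines. The 3 libraries of BxPC-3 with THZ1 lay at 2.34 to 2.41, against 5.12 to 6.8 with DMSO. LINC00857 had log2 fold changes of -0.57 and -0.75, LINC00894 of -0.48 and -0.47, and LINC00999 of -0.59 and -0.42. The smallest fall of each of the 9, over the 5 scales, was the one on the deposited scale.

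Leaving out any of the 18 libraries left 7 of the 9 called in both lines. LINC00894 lost its call in BxPC-3 without THZ1 replicate 3 or DMSO replicate 1, and in MiaPaCa-2 without THZ1 replicate 1 or 3 or DMSO replicate 3. LINC00999, with 2 to 27 reads a library, lost its MiaPaCa-2 call without any of 10 libraries and overlapped there. The other 5 members lower in BxPC-3 were LINC00319, LINC00476, LINC00657, LINC00667 and LINC00863. The other 5 lower in MiaPaCa-2 were LINC00205, LINC00638, LINC00680, LINC00886 and LINC00969. LINC00969 was at 12.3, 13.3 and 15.6 there with THZ1, against 31.5, 30.6 and 28.3 with DMSO, a log2 fold change of -1.09 (limma adjusted p = 9.26e-05). In BxPC-3 its value of 0.16 did not pass, and it was negative on other scales.

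**Figure D3:**
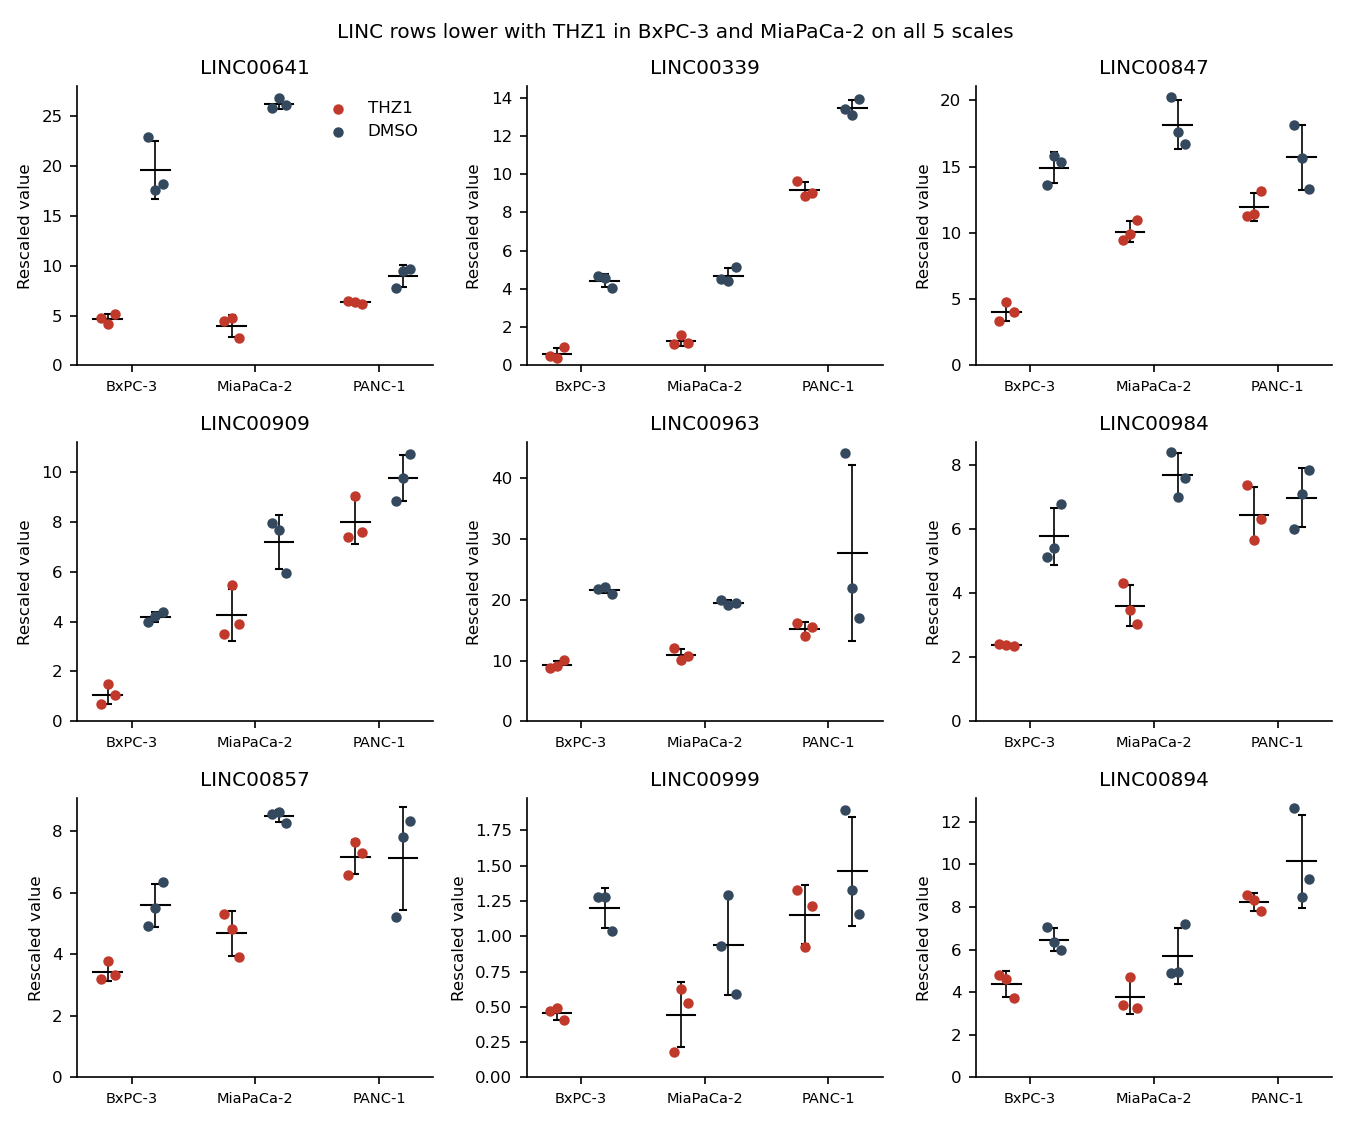
Rescaled value of the 9 LINC rows lower with THZ1 in both BxPC-3 and MiaPaCa-2. Each point is a library, red with THZ1 and dark blue with DMSO, with mean and SD (n = 3) as bars, and the vertical axes start at 0. LINC00641 and LINC00339 show the widest gaps. In PANC-1 the gaps are narrower, and DMSO replicate 1 stands high for LINC00963.

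Set against the coding gene next door, several of these RNAs fell in relation to their neighbour. The 6 members so read were those that fell at least 2-fold without overlap in BxPC-3. A lower ratio there therefore follows in part from the choice. The ratio of 2 read counts in the same library needs no scale, and it shows unequal change without saying which gene changed. LINC00339 had 1.05 ± 0.514 reads per 1000 reads of CDC42 in BxPC-3 with THZ1 and 15.3 ± 0.86 with DMSO (SD, n = 3 each). In MiaPaCa-2 the ratio was 3.52 ± 0.735 with THZ1 and 24.5 ± 2.16 with DMSO. In PANC-1 it was 34.5 ± 2.28 with THZ1 and 63.2 ± 5.65 with DMSO. CDC42 itself was called higher, with log2 fold changes of 1.02 in BxPC-3 and 0.93 in MiaPaCa-2 on the deposited scale, and -0.17 and -0.36 when divided by ERCC reads.

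LINC00641 had 5.66 ± 0.672 reads per 1000 of HNRNPC in BxPC-3 with THZ1 and 42.7 ± 6.85 with DMSO, and 3.54 ± 1.04 with THZ1 and 40.7 ± 1.33 with DMSO in MiaPaCa-2. LINC00847 had 13.9 ± 2.26 reads per 1000 of MGAT1 with THZ1 and 76.7 ± 2.81 with DMSO in BxPC-3. LINC00963 had 145.4 ± 9.25 reads per 1000 of NTMT1, a protein N-terminal methyltransferase gene, with THZ1 and 419 ± 48.9 with DMSO in BxPC-3. None of these groups overlapped, each with the smallest exact permutation p of 0.1. As the members were picked for groups without overlap, that p is no separate support. LINC00909 set against ZNF407 was far apart in BxPC-3, at 65.3 ± 17.1 reads per 1000 with THZ1 and 263 ± 17.4 with DMSO. In MiaPaCa-2 their ratio was 328 ± 60.02 with THZ1 and 323 ± 63 with DMSO (exact permutation p = 0.9), since both fell there. In PANC-1 the ratios of LINC00339, LINC00641, LINC00909 and LINC00963 were lower with THZ1 without overlap. Those of LINC00847 to MGAT1 (exact permutation p = 0.3) and of LINC00657 to its neighbour EPB41L1 (p = 0.9) overlapped there.

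The neighbours of called members went both ways. Over all 70 members with a nearest coding gene in the table, 30 neighbours were higher, 19 lower and 21 not called in BxPC-3, and 28, 20 and 22 in MiaPaCa-2. Of the 13 lower members of BxPC-3 with such a gene, 4 neighbours were higher, 4 lower and 5 not called. Of the 12 in MiaPaCa-2, 7 were higher, 3 lower and 2 not called. Next to the members called higher, 7 of 14 neighbours were higher and 3 lower in BxPC-3, and 5 of 15 were higher and 2 lower in MiaPaCa-2. The rank correlation of member and nearest-gene response was 0.138 in BxPC-3 and -0.0506 in MiaPaCa-2 over 54 members. For 8 members that start within 2000 bases of a coding gene on the other strand, head to head, it was 0.524 in BxPC-3 and 0.405 in MiaPaCa-2. These values describe genes measured in the same libraries.

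Among the members called higher, LINC00152, now CYTOR, a cancer-associated RNA named for its role in the cytoskeleton, had the largest log2 fold change in BxPC-3. It was at 19.1, 18.7 and 20.7 with THZ1, against 9.29, 7.07 and 7.95 with DMSO. The groups were separate, and the log2 fold change was 1.18 (SE 0.24, limma adjusted p = 0.000469), which held with equal sums (0.50) but shrank to 0.07 when divided by ERCC reads. Its MiaPaCa-2 libraries stood at 40.6, 40.3 and 38.3 with THZ1, against 22, 23.5 and 23.7 with DMSO. There the log2 fold change of 0.76 (adjusted p = 0.013) turned to -0.50 (adjusted p = 0.0496) when divided by ERCC reads. A near copy, MIR4435-2HG, matches 30.0% of its transcript length, and reads from it may be counted here.

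LINC01003, beside the histone methyltransferase gene KMT2C, was among the 11 members called higher in both BxPC-3 and MiaPaCa-2 on the deposited scale. It was at 4.75, 4.6 and 3.23 in BxPC-3 with THZ1, against 1.09, 1.46 and 1.84 with DMSO. Its values in MiaPaCa-2 were 11.2, 10.8 and 12.1 with THZ1, against 5.02, 4.26 and 4.54 with DMSO. In PANC-1 it was at 2.88, 3.1 and 2.23 with THZ1, against 1.42, 1.94 and 1.44 with DMSO. All 3 pairs of groups were separate. The log2 fold changes of 1.07 and 1.14 passed (limma adjusted p = 1.91e-05 and 1.17e-05) on 4 of the 5 scales, and were 0.22 and 0.01 when divided by ERCC reads. The PANC-1 value of 0.52 did not pass (adjusted p = 0.113). Its promoter window (GRCh38.p14, chr7:152463874-152464173, plus strand) is shown as the counterpart of those above. Capitals mark GC boxes and the CCAAT motif.
LINC01003 promoter: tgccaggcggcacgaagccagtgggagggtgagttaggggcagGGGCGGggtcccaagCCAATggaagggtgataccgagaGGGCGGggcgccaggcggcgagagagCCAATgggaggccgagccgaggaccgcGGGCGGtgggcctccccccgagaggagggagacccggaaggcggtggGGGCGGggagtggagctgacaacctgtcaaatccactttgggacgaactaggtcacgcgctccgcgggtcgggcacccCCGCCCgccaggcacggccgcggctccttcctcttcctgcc

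LINC00035 was the member called higher in MiaPaCa-2 on all 5 scales. It was at 4.03, 3.93 and 5.58 there with THZ1, against 0.93, 1.46 and 1 with DMSO. The log2 fold change was 1.37 (SE 0.20, limma adjusted p = 2.48e-05), and 0.50 when divided by ERCC reads (adjusted p = 0.0384). In BxPC-3 its value of 0.53 was called (adjusted p = 0.0339) at levels of 0.857 to 0.969 with THZ1 and 0.173 to 0.488 with DMSO, and the call was lost without any of 5 of the 6 BxPC-3 libraries. LINC01004, which starts head to head with the gene of the chromatin regulator KMT2E, was higher in MiaPaCa-2 alone. It was at 5.5, 5.36 and 4.21 with THZ1, against 2.23, 1.35 and 1.77 with DMSO, with a log2 fold change of 1.12 (adjusted p = 0.000139) and 0.16 when divided by ERCC reads. In BxPC-3 its value was -0.19, and the difference between these lines passed (1.31 log2 units, adjusted p = 0.00471). KMT2E had -0.07 in MiaPaCa-2, which did not pass (adjusted p = 0.503).

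**Figure D4:**
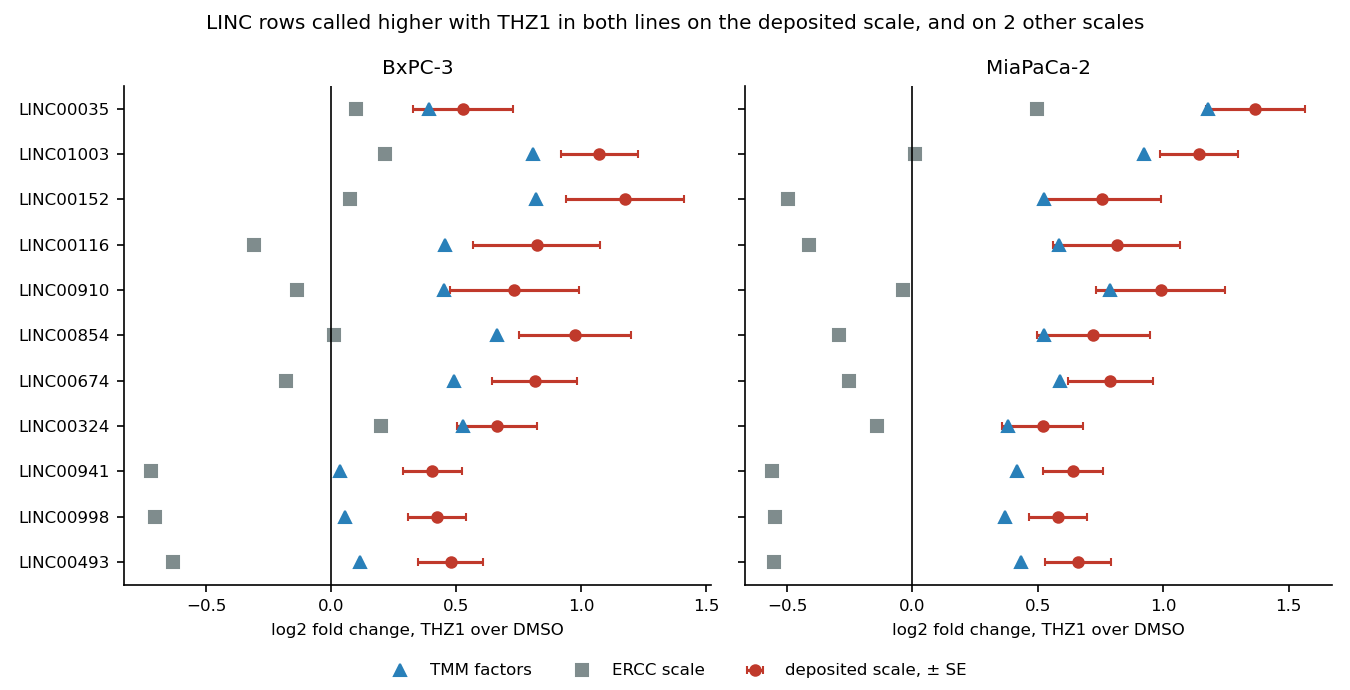
Log2 fold change, THZ1 over DMSO, of the 11 LINC rows called higher in both BxPC-3 (left) and MiaPaCa-2 (right) on the deposited scale. Red circles with bars are the deposited scale ± SE, blue triangles TMM factors and grey squares values divided by ERCC reads. Divided by ERCC reads, 6 of the 11 lie below 0 in both lines, the lowest in BxPC-3 being LINC00941, and of all these values that of LINC00035 in MiaPaCa-2 stayed called higher.

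A list of LINC genes known to encode small proteins was read next. Of 10 listed genes 5 were in the table, and on the deposited scale 3 were called higher and 0 lower in each of BxPC-3 and MiaPaCa-2. Of all rows, 36.4% and 32.9% were called higher in these lines and 17.1% and 18% lower. Their median log2 fold change was 0.48 in BxPC-3 and 0.58 in MiaPaCa-2, and it turned to -0.63 and -0.55 when divided by ERCC reads. LINC00116, which encodes the mitochondrial inner membrane peptide mitoregulin, was at 25.5, 26.6 and 26.2 in BxPC-3 with THZ1, against 13.7, 14.9 and 14.5 with DMSO. In MiaPaCa-2 it was at 25.8, 22.7 and 28.1 with THZ1, against 14.2, 12.8 and 15.2 with DMSO. The levels of both lines matched closely, and the log2 fold changes were 0.82 and 0.81 (limma adjusted p = 0.0114 and 0.0129), but -0.31 and -0.41 when divided by ERCC reads.

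LINC00493, which encodes the small protein SMIM26, had log2 fold changes of 0.48 and 0.66 in these lines (limma adjusted p = 0.00559 and 0.000493), and -0.63 and -0.55 when divided by ERCC reads. LINC00998, which encodes SMIM30, had 0.42 and 0.58 (adjusted p = 0.00558 and 0.000535), and -0.70 and -0.55 when divided by ERCC reads. LINC00094, now BRD3OS, was at 17, 19.2 and 15.9 in BxPC-3 with THZ1, against 17.3, 18.2 and 16.9 with DMSO, and did not pass in either line on the deposited scale. It was called lower in both lines on the other 4 scales, at -1.12 and -1.43 when divided by ERCC reads (adjusted p = 6.22e-06 and 2.35e-07). LINC00467, which encodes a peptide that binds the mitochondrial ATP synthase, had 0.48 and 0.40 and did not pass (adjusted p = 0.106 and 0.184), except without PANC-1 DMSO replicate 1.

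Of 24 LINC genes listed for work on cancers, 12 were in the table. In BxPC-3, 5 were called higher and 2 lower, and in MiaPaCa-2, 3 higher and 1 lower, on a background of 36.4% and 17.1% of all rows in BxPC-3 and 32.9% and 18% in MiaPaCa-2. Higher in BxPC-3 were LINC00152, LINC00324, LINC00511, LINC00665 and LINC00941, and lower were LINC00657 and LINC00963. The list's median log2 fold change was 0.41 in BxPC-3 and 0.27 in MiaPaCa-2, and -0.60 and -0.73 when divided by ERCC reads. LINC00941, which starts head to head with CAPRIN2, had 0.41 and 0.64 (limma adjusted p = 0.00842 and 0.000263), and its BxPC-3 call was lost without DMSO replicate 3. LINC00662, LINC00338, LINC00472 and LINC00704 did not pass in either line on the deposited scale. LINC00704 was called lower in both lines on the other 4 scales, at -0.76 and -1.36 when divided by ERCC reads. LINC00662 and LINC00338 reversed when divided by ERCC reads and were called lower in both lines there.

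In PANC-1 the test called no member, and the values still leaned downward. By limma 0 were higher (0.0529% of all rows) and 0 lower (0.0998%). At an unadjusted p under 0.05, 20 of the 74 passed, or 27% against 21.1% of all rows. edgeR called 0, and DESeq2 called 2 of 72, both lower (1.49% of all rows). The libraries did not overlap downward for 17 members (8.92% of all rows) and upward for 2 (7.62%), LINC00674 and LINC01003. On all 5 scales 52 members had a negative log2 fold change and 3 a positive one. The same count over all rows was not made. The PANC-1 median of all rows was -0.09 on the deposited scale and -0.31 when divided by ERCC reads. It was -0.08 with equal sums, -0.01 with TMM factors and 0.02 with DESeq2 size factors. These counts moved with the control libraries. Without PANC-1 DMSO replicate 3 the test called 13 members lower (10.3% of all rows), without replicate 1 it called 3 (1.11%) and without replicate 2 it called 1 (1.87%). LINC00319 was at 0.403, 0.396 and 0.128 with THZ1, against 1.42, 0.92 and 0.751 with DMSO. Its log2 fold change on the value plus 1 was -0.63 (limma adjusted p = 0.0713), and it passed without any of the 3 controls.

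The response to THZ1 differed among the lines for 22 of 74 members (45.1% of all rows), by the F-test on the differences of response. That is 29.7% of members. Against BxPC-3, the response in PANC-1 was higher for 7 members (10.6% of all rows) and lower for 12 (27.8%). Against MiaPaCa-2 it was higher for 5 (10.2%) and lower for 11 (24.5%). The balance of these counts turned round on other scales, for members as for all rows. Against BxPC-3 it was 14 higher and 1 lower when divided by ERCC reads (25.3% and 1.4% of all rows). For libraries set to equal sums it was 18 and 1 (27.4% and 4.52%). TMM factors gave 11 and 3 (19% and 10.8%), and DESeq2 size factors 11 and 5 (17.1% and 13%). Against MiaPaCa-2 it was 20 and 1 when divided by ERCC reads (37.3% and 1.46% of all rows). For equal sums it was 16 and 2 (27.1% and 4.46%). TMM factors (15.8% and 12.9%) and DESeq2 size factors (15.2% and 13.3%) each gave 7 and 5. Between MiaPaCa-2 and BxPC-3 the response was higher in MiaPaCa-2 for 4 members (5.36%) and lower for 3 (6.72%). The higher group held LINC00657 and LINC00847, which fell more in BxPC-3. LINC00511, an RNA studied as a promoter of tumour growth, was at 17.7, 20.3 and 20.7 in BxPC-3 with THZ1, against 13.4, 15.2 and 13.1 with DMSO, a log2 fold change of 0.46 (adjusted p = 0.0164) that became -0.65 when divided by ERCC reads. The MiaPaCa-2 libraries lay at 0.842 to 1.28 with THZ1 and 1.36 to 1.94 with DMSO (log2 fold change -0.33, adjusted p = 0.0775). The responses differed by 0.79 log2 units (adjusted p = 0.0218, called on 3 of the 5 scales), although the BxPC-3 call was lost without any of 4 of its libraries.

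The lines differed in their LINC RNAs without the drug. With DMSO, 52 of 74 members differed among the lines (72.5% of all rows), or 70.3% of members. Against BxPC-3, 30 members were higher in MiaPaCa-2 (34% of all rows) and 9 lower (22.7%), and 32 were higher in PANC-1 (31.3%) and 9 lower (22.9%). Against MiaPaCa-2, 21 were higher in PANC-1 (25.7%) and 9 lower (29.6%). The lower counts moved with the scale, to 7 to 15 members in MiaPaCa-2 and 7 to 12 in PANC-1 against BxPC-3. Of all rows these were 13.9% to 28.9% and 17.8% to 29.1%. Against MiaPaCa-2, 19 were higher and 17 lower in PANC-1 when divided by ERCC reads (18% and 37.6% of all rows). These pairs share control libraries. LINC00842 was highest in BxPC-3, at 22.8, 19.1 and 17.7 there with DMSO, against 0.27 to 0.566 in MiaPaCa-2 and 1.02 to 3.95 in PANC-1. With THZ1 it was at 17.1 to 18.2 in BxPC-3 and was not called on the deposited scale (limma adjusted p = 0.602), though it was called lower there on 3 others. LINC00319 showed the same order, at 7.16 to 8.53 in BxPC-3, 0.751 to 1.42 in PANC-1 and 0.162 to 0.324 in MiaPaCa-2 with DMSO.

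LINC00665, a gene among zinc finger genes, was highest in PANC-1. With DMSO it was at 19.3, 14.5 and 13.5 there, against 0.346 to 0.549 in BxPC-3 and 0.364 to 0.648 in MiaPaCa-2. The lower pair was not found to differ (log2 difference 0.09, MiaPaCa-2 minus BxPC-3, adjusted p = 0.671). LINC00511 was low in MiaPaCa-2, at 1.36 to 1.94 with DMSO, against 13.1 to 15.2 in BxPC-3 and 26.5 to 41.2 in PANC-1. LINC00205, beside POFUT2, and LINC00342 were low in BxPC-3 instead, at 0.793 to 1.04 and 1.89 to 2.48 with DMSO. Neither was found to differ between PANC-1 and MiaPaCa-2 (log2 difference -0.22, adjusted p = 0.259, and 0.03, adjusted p = 0.882). LINC00910 and LINC00472 had their highest DMSO means in PANC-1, and for both PANC-1 DMSO replicate 1 was the highest of the controls.

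**Figure D5:**
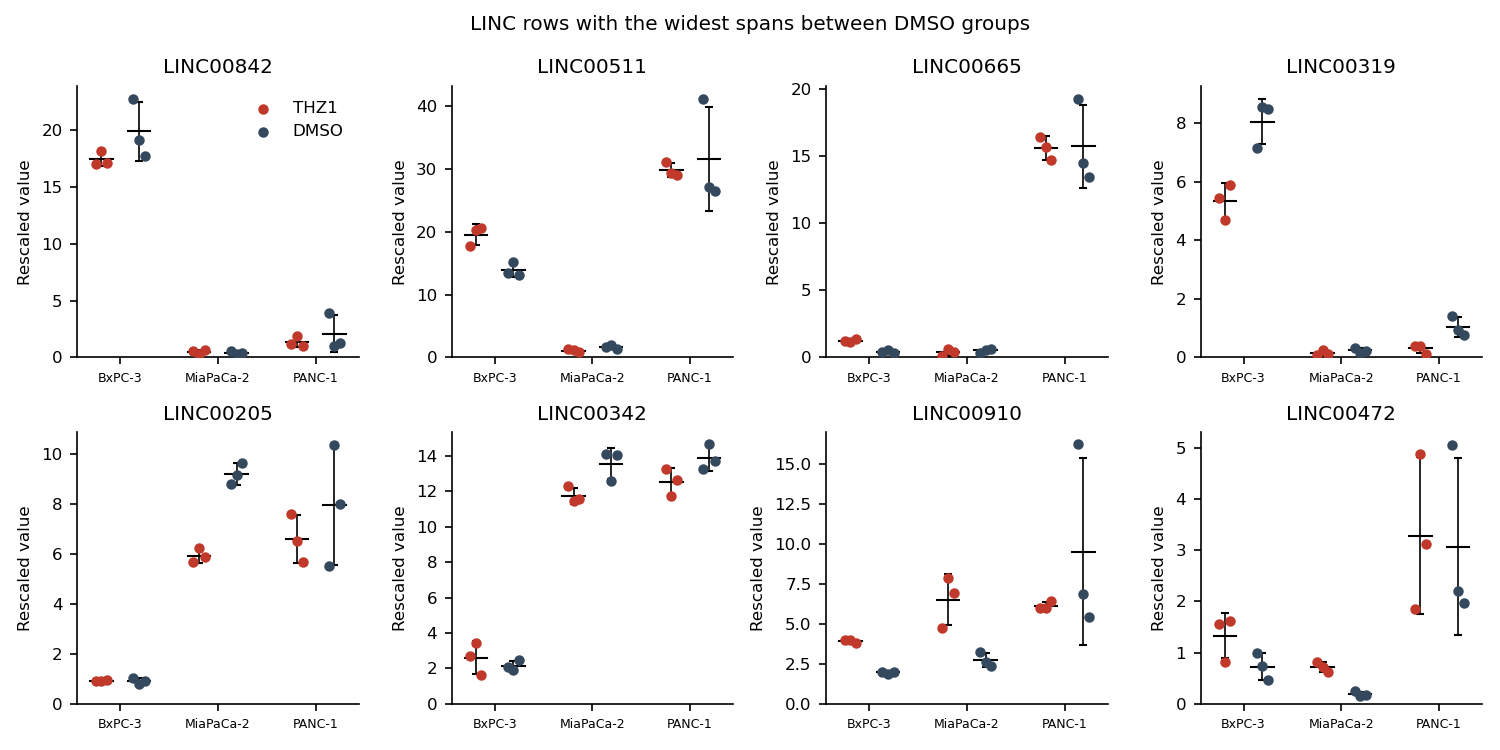
Rescaled value of the 8 LINC rows with the widest spans between DMSO group means. Each point is a library, red with THZ1 and dark blue with DMSO, with mean and SD (n = 3) as bars, and the vertical axes start at 0. LINC00842 and LINC00319 are highest in BxPC-3, LINC00665 and LINC00511 in PANC-1, while LINC00205 and LINC00342 are lowest in BxPC-3.

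Members with longer transcripts had lower responses. Over 54 members with a mean of at least 1 and a transcript, the rank correlation of the longest transcript's length with the response was -0.324 in BxPC-3, -0.372 in MiaPaCa-2 and -0.373 in PANC-1. These points share their libraries, and long transcripts collect more reads. The mean level had -0.0318, -0.0728 and 0.184 over 57 members, and the part of read depth was not tested. The number of exons had -0.0124, 0.0919 and -0.141. Members that RefSeq lists as protein coding had 5 calls up and 1 down in each of BxPC-3 and MiaPaCa-2, of 13. Those listed as long non-coding had 9 up and 13 down in BxPC-3 and 10 up and 13 down in MiaPaCa-2, of 60. Of all rows, 36.4% and 32.9% were called up in these lines and 17.1% and 18% down. The difference between these classes was not tested.

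Promoter motifs were counted in the members and in all genes. RefSeq windows were found for 62 members, 70 windows in all, out of 35116 promoters. The GC box GGGCGG, on either strand, was in 57.1% of member windows and 45.0% of all promoters. The TATA box TATAAA was in 5.71% and 11.5%. The CCAAT motif was in 37.1% and 34.6%, the E-box CACGTG in 8.57% and 7.26%, the AP-1 motif TGACTCA in 8.57% and 4.95%, and the CRE motif TGACGTCA in 4.29% and 1.85%. The shares of the last 3 rest on 6, 6 and 3 windows. Median GC content was 62.5% in member windows and 58.7% in all promoters.

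Depth limited what could be seen. The median member had a mean rescaled value of 2.64, against 12.8 for the median row. In their shallowest library 39 members had fewer than 10 reads, and 38 never reached 100 reads in any library. Of the 74, 64 passed a minimum of 1 in at least 3 libraries, and 57 had a mean of at least 1. Of the 17 members with a mean under 1, 3 were called in BxPC-3 and 3 in MiaPaCa-2. A missing call at such levels does not show that a member was unaltered. Every row of the deposited table had a recovered count of at least 1 in every library. Each divisor was recovered from the smallest value of its library, so whether rows without reads were left out cannot be told. LINC genes absent from the table were not analysed here.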

How the data were processed

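Polyadenylated RNA was measured in 18 libraries, 3 for each of 6 groups. Per the submitters' processing notes, STAR and the build hg19 were used. How reads were counted, on which annotation, and how each divisor was set is not given in the sources used here. A normalised signal was deposited per row and library, which equals a whole number of reads over 1 whole number per library within 0.001 (largest deviation 0.000112). The deposited log2 ratios, log2 means and SDs were not used. Values were multiplied by 17.7, and limma 3.58.1 (R 4.3.3, trend) was fitted to log2 of the value plus 1 over all 17026 rows, with 6 group means, residual df 12, no filter on low values and Benjamini-Hochberg adjustment at 0.05. A group of 22 names turned into dates by a spreadsheet kept no gene name. The members, lists, comparisons and the naming rule were chosen with earlier results of these data known. Named were members called with at least a 2-fold change, no overlap and a mean of at least 2, the 8 widest spans between DMSO groups, the 6 smallest interaction p, the 10 highest means, and the listed genes, 30 in all. Others named were chosen as counts of members called in both lines. Alternatives were 4 other scales, 2 filters, 2 pseudocounts, a replicate block, the compared groups alone, leaving out each library, and edgeR 4.0.16 and DESeq2 1.42.0 on the recovered counts behind the deposited values. The fit was tested on simulated data. RefSeq (GRCh38.p14) and GENCODE 29 served for names, neighbours and sequences only. Shares cover counting error only in so far as reads without molecular identifiers are independent.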

Additional observations from a re-analysis of the deposited data

Results flagged for a closer look

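By the F-test of the differences themselves on the deposited scale, the response to THZ1 differed among the 3 lines for 18 members. These are among the 30 that the naming rule took. That rule took in the 6 smallest p of this same test, so the count is no measure of how common such differences are. Of all 74 members 22 passed, or 29.7%, against 45.1% of all rows. LINC00641 had the smallest adjusted p (7.94e-06), with log2 fold changes of -2.48 in MiaPaCa-2, -1.85 in BxPC-3 and -0.43 in PANC-1. LINC00847 followed (0.00014), then LINC00339 (0.000273), both with the deepest fall in BxPC-3. LINC00035 (0.000936) and LINC01004 (0.00231) had their highest response in MiaPaCa-2. LINC00984 (0.00267) fell in BxPC-3 and MiaPaCa-2 and had -0.10 in PANC-1. LINC00969 (0.00288) fell in MiaPaCa-2, and LINC00909 (0.004) and LINC00657 (0.00836) the most in BxPC-3.

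The remaining 9 were called higher in at least 1 of BxPC-3 and MiaPaCa-2 and had values of -0.42 to 0.52 in PANC-1. They were LINC00910 (adjusted p = 0.00994), LINC00152 (0.0107), LINC00665 (0.0151), LINC00511 (0.0178), LINC00493 (0.0178), LINC00324 (0.0328), LINC00116 (0.0402), LINC01003 (0.0495) and LINC00941 (0.0495). For LINC00493, LINC00324, LINC00116, LINC01003 and LINC00941 the F-test passed on the deposited scale alone, 1 of the 5. LINC00910 and LINC00152 passed on 3 of the 5 scales, LINC00665 on 4 and LINC00511 on all 5. For LINC00152, LINC00116, LINC00910 and LINC00324, the PANC-1 DMSO libraries ran as wide as 16.3 to 42.5, 17.2 to 46.1, 5.43 to 16.3 and 0.116 to 0.631. Replicate 1 was the highest of them in each case, and its part in these differences was not tested.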

How the results depend on the processing

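The counts of calls moved with the scale, for members as for all rows. Members called higher and lower in BxPC-3 numbered 0 and 45 when divided by ERCC reads (1.2% and 53.8% of all rows), 3 and 33 with equal sums (8.29% and 38.8%) and 7 and 24 with TMM factors (20.2% and 26.9%). They numbered 8 higher and 25 lower with edgeR (21% and 27.8% of all rows). With DESeq2 size factors 22 were lower (24.1%), and with the compared groups alone 23 were higher (46.9%). In MiaPaCa-2 these were 1 and 53 when divided by ERCC reads (1.33% and 68.1% of all rows). With equal sums they were 3 and 29 (8.49% and 39.2%). Lower calls there numbered 23 with TMM factors (24%), 22 with DESeq2 size factors (22.4%), 24 with edgeR (24.5%) and 23 with DESeq2 (23.2%). In PANC-1 the lower calls were 19 when divided by ERCC reads (16.3% of all rows) and 1 with equal sums (0.811%). A pseudocount of 4 gave 1 (0.335%) and DESeq2 gave 2 (1.49%). Leaving out 1 library gave 10 to 20 higher and 11 to 22 lower members in BxPC-3, 14 to 23 and 10 to 22 in MiaPaCa-2, and 0 to 0 and 0 to 13 in PANC-1. It gave 17 to 32 members for the difference of response and 47 to 61 among DMSO groups. These ranges were not set beside those of all rows. The highest counts came without PANC-1 DMSO replicate 1, except the 13, which came without replicate 3.

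Of the members above 0 on the deposited scale, 25 of 35 in BxPC-3, 28 of 34 in MiaPaCa-2 and 11 of 14 in PANC-1 were below 0 when divided by ERCC reads. Among members that the naming rule took, those whose log2 fold change reversed so, with a call on at least 1 of the 2 scales, were, in BxPC-3, LINC00969 (-0.95), LINC00662 (-0.91), LINC00941 (-0.72), LINC00998 (-0.70), LINC00511 (-0.65), LINC00493 (-0.63), LINC00342 (-0.63), LINC00338 (-0.55), LINC00116 (-0.31) and LINC00910 (-0.13). In MiaPaCa-2 they were LINC00662 (-0.998), LINC00338 (-0.81), LINC00467 (-0.65), LINC00941 (-0.56), LINC00493 (-0.55), LINC00998 (-0.55), LINC00152 (-0.50), LINC00116 (-0.41), LINC00324 (-0.14) and LINC00910 (-0.039). With equal sums, reversals in BxPC-3 were LINC00969 (-0.53), LINC00662 (-0.51), LINC00941 (-0.29), LINC00998 (-0.27), LINC00511 (-0.23) and LINC00493 (-0.21), and in MiaPaCa-2 LINC00662 (-0.41). The cause was not tested.

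The main fit did not pair the samples by replicate number. Deviations of same-numbered libraries correlated at 0.01 to 0.164 in BxPC-3 and MiaPaCa-2 and at -0.043 to 0.491 in PANC-1. With 3 libraries a group these values cannot settle whether the samples are paired. The highest were those of PANC-1 replicates 1 and 2, at 0.491 and 0.334. With the replicate block 16 members were higher and 16 lower in BxPC-3 (36.4% and 17.1% of all rows). These counts were 16 and 16 in MiaPaCa-2 (33.2% and 18%) and 0 and 0 in PANC-1 (0.0117% and 0.047%).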

Other observations

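Other long non-coding RNAs and the factors that limit such RNAs were read from the same fit. Of all rows, 36.4% were called higher and 17.1% lower in BxPC-3, 32.9% and 18% in MiaPaCa-2, and 0.0529% and 0.0998% in PANC-1. Of 29 listed long non-coding RNAs, 19 were in the table. With THZ1, 7 were higher and 2 lower in BxPC-3, 8 and 2 in MiaPaCa-2, and 0 and 0 in PANC-1. MALAT1, an abundant nuclear RNA, had log2 fold changes of 1.07 in BxPC-3 and 0.81 in MiaPaCa-2, but -0.12 and -0.48 when divided by ERCC reads. TUG1, a widely expressed RNA, fell by 0.55 and 0.82 and was lower on the ERCC scale too (-1.72 and -2.10). Of 221 antisense-named rows, 41 were higher and 37 lower in BxPC-3 and 57 and 38 in MiaPaCa-2. Their median log2 fold change was -0.02 in BxPC-3, 0.02 in MiaPaCa-2 and -0.24 in PANC-1. The LINC members had -0.01, -0.08 and -0.24, so a median below that of all rows was not particular to them. Of 14 small nucleolar RNA host genes (SNHG), 6 were higher and 3 lower in BxPC-3 and 5 and 1 in MiaPaCa-2.

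Of 26 genes of the nuclear RNA exosome and its partners, 8 were higher and 11 lower in BxPC-3 (36.4% and 17.1% of all rows), 10 and 9 in MiaPaCa-2 (32.9% and 18%), and 0 and 1 in PANC-1 (0.0529% and 0.0998%). The 1 was ZC3H4, which restricts transcription of non-coding RNA, at 42 ± 1.45 with THZ1 and 59.6 ± 3.96 with DMSO (SD, n = 3 each; log2 fold change -0.49, limma adjusted p = 0.0275). ZC3H4 was at 7.89 ± 0.0569 with THZ1 and 104.9 ± 3.04 with DMSO in BxPC-3 and at 16.3 ± 1.75 with THZ1 and 115 ± 6.12 with DMSO in MiaPaCa-2. Log2 fold changes in these lines were -0.82 and -1.005 for its partner WDR82, and -1.62 and -0.78 for the exosome subunit EXOSC3. SRRT, a cap-binding cofactor, was higher by 1.93 and 1.55, and by 0.74 and 0.26 when divided by ERCC reads. Whether these changes bear on the LINC values was not tested.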
